A study of Mus musculus with 12 samples.

Results

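Store-operated calcium entry is the main route by which a T cell takes up calcium after its antigen receptor is engaged, and 10 genes of that route are described here in primary mouse CD4+ T cells. They are the calcium sensor genes Stim1 and Stim2, the channel genes Orai1, Orai2 and Orai3, the inositol trisphosphate (IP3) receptor genes Itpr1, Itpr2 and Itpr3, and the plasma membrane calcium pump genes Atp2b1 and Atp2b4. They were taken by gene symbol from the 17203 genes of the expression table. All 10 were found, and all 10 passed the filter for testing, which 9826 genes passed.

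As background, receptor signalling activates phospholipase C gamma, whose product IP3 opens IP3 receptors in the endoplasmic reticulum (ER) and lets its stored calcium into the cytosol. STIM proteins sense the fall of calcium inside the ER, move to its contacts with the plasma membrane and open ORAI channels there. Calcium that enters activates calmodulin and calcineurin, and calcineurin sends NFAT transcription factors to the nucleus, while pumps encoded by the ATP2B genes push calcium back out of the cell.

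RNA sequencing covered 12 libraries in 4 groups of 3, all from CD4+ T cells of C57BL/6 mice, and the labels give no age. The group Unstimulated held cells taken fresh, without any activation. Cells of the group CD3 were kept for 72 h on anti-CD3 fixed to the plate, which cross-links the receptor complex. The group CD3_CD28 received anti-CD3 in the same format for 72 h plus anti-CD28 in solution, an antibody to the costimulatory receptor CD28. In the group CD3_CD28_ICOS anti-CD3, anti-CD28 and anti-ICOS, an antibody to a receptor related to CD28, were all in solution for 72 h, so an effect of anti-ICOS cannot be told apart from the format of anti-CD3. The fresh cells were not cultured, so stimulation and 72 h of culture cannot be told apart in any comparison with them. The series' design text speaks of transduced cells, while no sample label names a transduction. Nothing in the labels ties the 3 replicates of a group to different mice or cultures, and p-values therefore cover only the variation from library to library, possibly technical.

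Levels are counts per 1e6 assigned reads (CPM), and changes are differences of mean log2(CPM + 1) ± SE, which understate the change of genes with low values. A gene was called when its limma p-value, adjusted by the Benjamini-Hochberg method over all 9826 genes, was under 0.05. Estimated depth was 11.4 to 37.5 times 1e6 reads per library, so that 1 read was worth 0.0267 to 0.0879 CPM, and the lowest value of any of the 10 genes was 4.30 CPM. A ribosomal RNA gene took 11.8% of CD3_CD28 replicate 1 and at most 3.20% of any other library, and Fos, an immediate early gene, was at 1275 CPM in Unstimulated replicate 3 but at 70.7 and 30.9 CPM in replicates 1 and 2. All 7 CD4 T cell markers were detected in every group, and they summed to 4712 to 5140 CPM in Unstimulated, 4204 to 4586 CPM in CD3_CD28_ICOS, 2832 to 3335 CPM in CD3 and 2737 to 3184 CPM in CD3_CD28. All 7 B cell markers were also detected in every group, and their sum was 116 to 205 CPM in Unstimulated, 226 to 481 CPM in CD3, 167 to 479 CPM in CD3_CD28_ICOS and only 6.58 to 8.66 CPM in CD3_CD28. Summed markers of myeloid cells (145 to 336 CPM), red cells and platelets (107 to 205 CPM) and pancreatic acinar cells (322 to 1637 CPM) were higher in the fresh cells than in any stimulated library, where they reached at most 19.2, 7.31 and 1.67 CPM. In bulk RNA, fewer cells of a type and less RNA per cell cannot be told apart.

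The 10 genes did not move as 1 block. In all 3 stimulated groups Stim1, Orai2, Itpr2 and Itpr3 were lower than in fresh cells, and Stim2 and Atp2b4 were higher. Of these calls, the rise of Atp2b4 in CD3 was lost under quantile normalization and median-of-ratios scaling. The rise of Stim2 in CD3_CD28 was not called in the authors' deposited table. The largest single change was the rise of the pump gene Atp2b4 in CD3_CD28, to 222 ± 60.3 CPM (SD, n = 3 libraries) from 7.62 ± 3.08 CPM in fresh cells, while it stayed at 18.0 ± 5.53 CPM in CD3 and 25.9 ± 13.6 CPM in CD3_CD28_ICOS. The largest fall was that of the channel gene Orai2, from 197 ± 13.1 CPM in fresh cells, with CD3 at 47.2 ± 2.63 CPM and CD3_CD28 at 41.3 ± 0.945 CPM. In CD3_CD28_ICOS, Orai2 and Itpr2 lay between the fresh cells and the other stimulated groups, and Itpr1 was above all other groups at 192 ± 18.2 CPM.

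**Figure D1:**
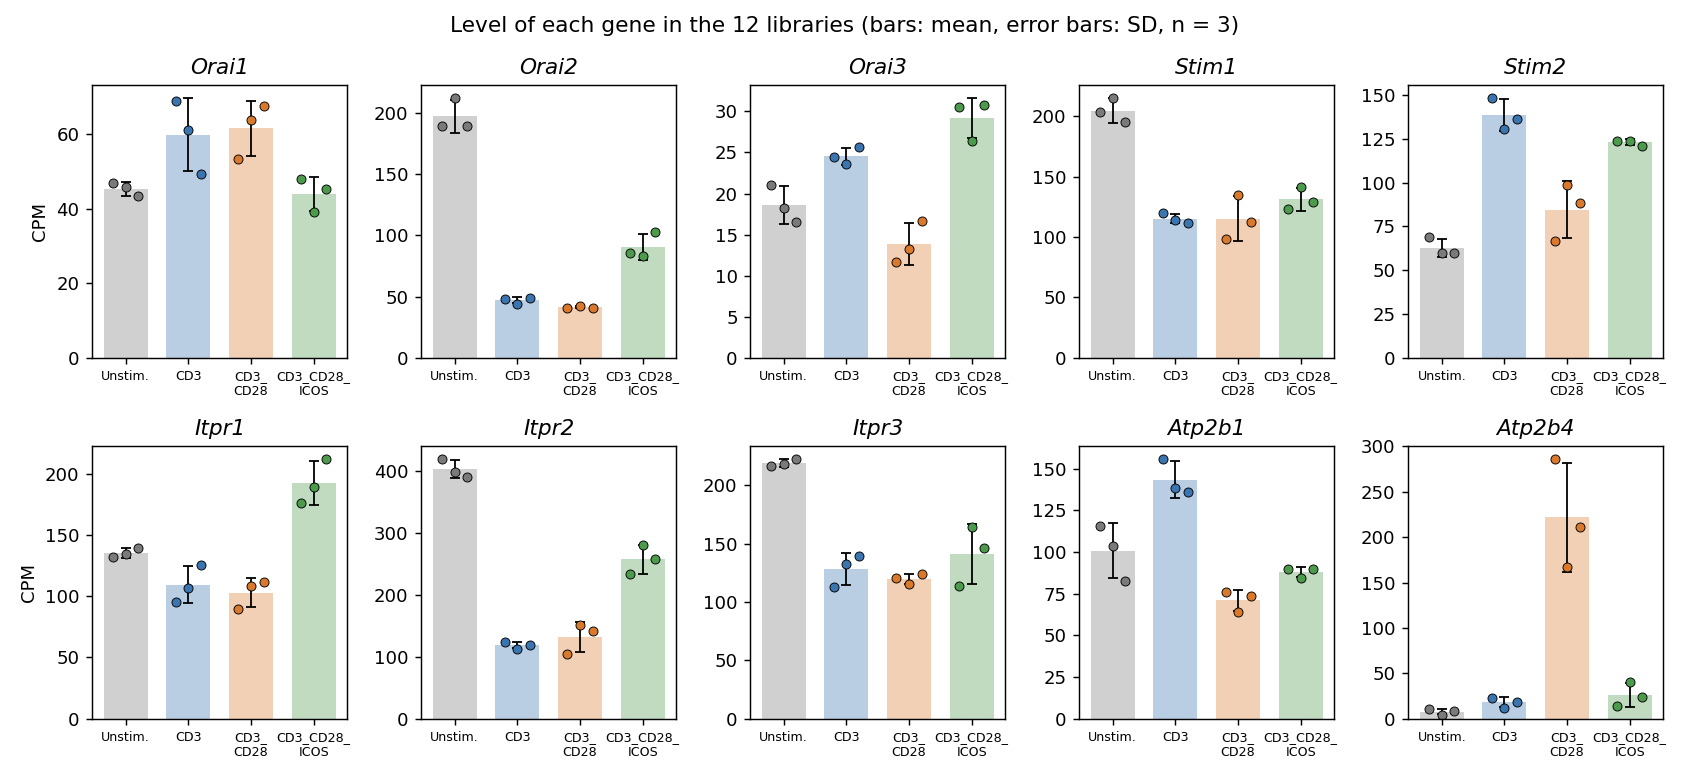
Level of each of the 10 genes in CPM (vertical axes, each from 0) in the 12 libraries; points are libraries, bars are group means and error bars are the SD of 3 libraries. Atp2b4 stands at 167 to 287 CPM in CD3_CD28 and at most 40.7 CPM in any other library, while Orai2 and Itpr2 are highest in the unstimulated libraries.

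In CD3 against Unstimulated 5 of the 10 genes were called higher and 5 lower. Of all genes tested 69.8% were called in that comparison, 43.6% higher and 26.3% lower. The libraries of the groups did not overlap for all 10, as for 76.9% of all genes. In CD3_CD28 against Unstimulated 3 were called higher and 7 lower, beside 75.2% of all genes called, 36.1% higher and 39.1% lower, and 8 did not overlap, beside 76.7%. In CD3_CD28_ICOS against Unstimulated 4 were called higher and 4 lower, beside 59.4% called, 35.6% higher and 23.7% lower, and 8 did not overlap, beside 64.5%. These 3 comparisons share the unstimulated libraries.

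Between stimulations, CD3_CD28 against CD3 gave 1 gene higher and 3 lower, beside 64.4% of all genes called, 18.7% higher and 45.7% lower, and 5 did not overlap, beside 72.4%. That split depended on the scaling, being 2 higher and 3 lower after quantile normalization and 4 higher and 3 lower after median-of-ratios scaling. All genes gave 2882 higher and 3109 lower, and 3169 higher and 2789 lower, under these scalings. CD3_CD28_ICOS against CD3_CD28 gave 6 higher and 2 lower, beside 63.0% called, 38.5% higher and 24.5% lower, and 8 did not overlap, beside 64.8%. CD3_CD28_ICOS against CD3 gave 3 higher and 2 lower, beside 47.7% called, 18.9% higher and 28.7% lower, and 8 did not overlap, beside 58.5%. Over the 9 stimulated libraries alone 8 of the 10 differed among the 3 groups in limma's F test, beside 80.7% of all genes, the exceptions being Stim1 (adjusted p = 0.223) and Itpr3 (adjusted p = 0.313). Most of the transcriptome was called, so these counts are read against it. In CD3 and CD3_CD28 against Unstimulated every one of the 10 was called as deposited. Only 6 and 8 of them were called in all 22 limma alternatives, and 7 and 6 in the authors' deposited table. The matching shares of all genes are not given here, so these counts do not set the 10 apart from other genes.

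The median change over the 10 genes was 0.033 in CD3 against Unstimulated, where the median over all genes tested was 0.18, and -0.087 in CD3_CD28 against CD3, where it was -0.24. Both medians of the 10 changed sign under the other scalings, to -0.18 after quantile normalization and -0.12 after median-of-ratios scaling in CD3 against Unstimulated, and to 0.083 and 0.17 in CD3_CD28 against CD3. In CD3_CD28 against Unstimulated the median over the 10 was -0.45 and that over all genes -0.039. In CD3_CD28_ICOS against CD3_CD28 the median over the 10 was 0.43 and that over all genes 0.13. As deposited, more genes were called higher than lower in CD3, and the cause was not tested. In CD3 against Unstimulated 4280 of all genes were called higher and 2582 lower. In CD3_CD28 against CD3 the counts were 1837 higher and 4487 lower. Quantile normalization moved the median of all genes by -0.25 in CD3 against Unstimulated (3119 higher, 3766 lower), by 0.21 in CD3_CD28 against CD3 (2882 higher, 3109 lower) and by -0.12 in CD3_CD28_ICOS against CD3_CD28, and median-of-ratios scaling moved it by -0.15 (3605 higher, 3389 lower), 0.25 (3169 higher, 2789 lower) and -0.20. In CD3_CD28_ICOS against CD3_CD28 the share of calls that were higher was 61.2% as deposited, 50.9% after quantile normalization and 43.4% after median-of-ratios scaling. In CD3_CD28_ICOS against Unstimulated that share was 60.0, 44.0 and 49.3%, with shifts of the median of -0.16 and -0.10, and in CD3_CD28_ICOS against CD3 it was 39.7, 50.5 and 46.6%. Changes of the 10 genes below about that size depend on the scaling, and so do some larger ones. The rise of Atp2b4 in CD3, 1.17 as deposited, was 0.64 after quantile normalization and was not called there. Each call that depends on the scaling is named with its gene. Under both scalings the split of the 10 genes in CD3 against Unstimulated was 2 higher and 5 lower.

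**Figure D2:**
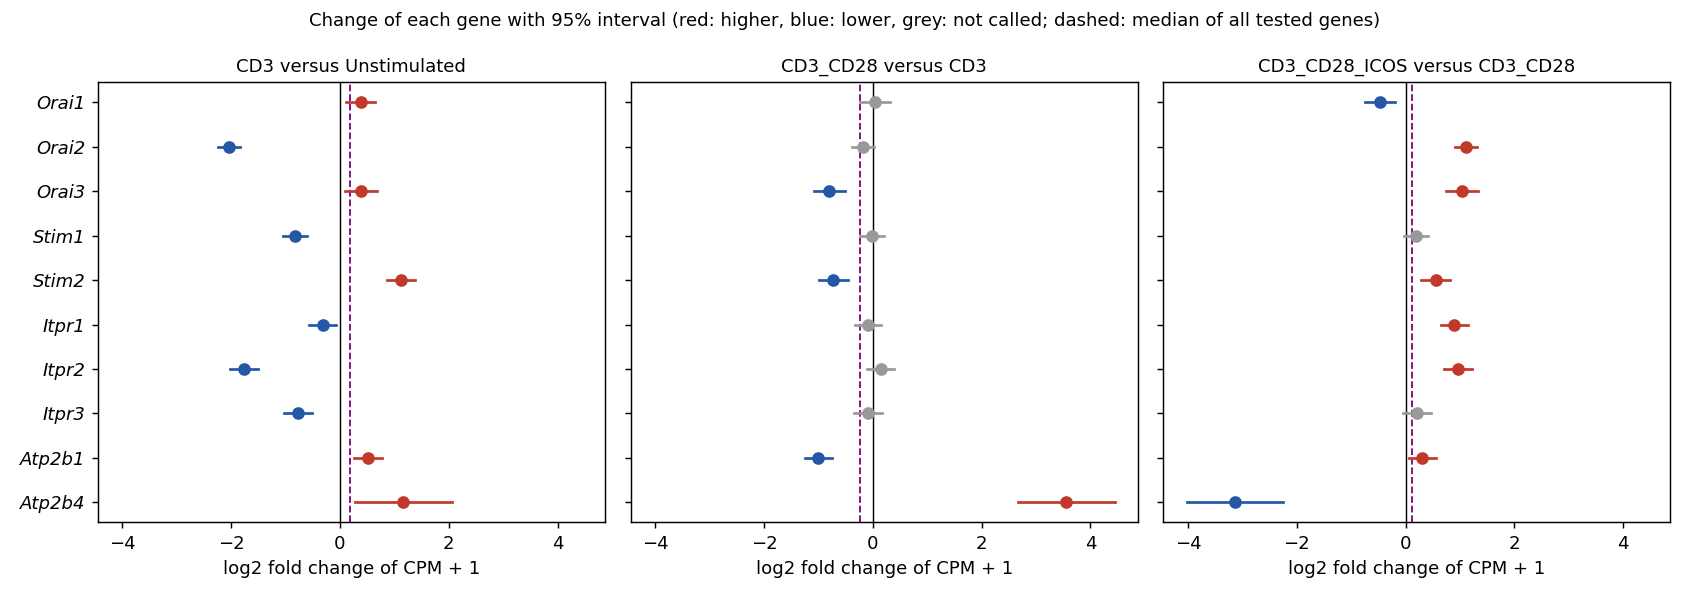
Change of each gene in 3 comparisons, as log2 fold change of CPM + 1 (horizontal axes) with its 95% interval from limma; red points were called higher, blue lower and grey not called, and the dashed line is the median of all 9826 genes. Atp2b4 lies furthest from 0 in the 2 panels on the right, at 3.56 and -3.14, and Orai2 furthest below 0 on the left, at -2.04.

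The sensors moved in opposite directions. Stim1 encodes the main ER calcium sensor of T cells, and Stim2 a sensor that responds to smaller falls of ER calcium. Stim1 (chromosome 7, 102267806 to 102437319, plus strand, of GRCm38, protein-coding, as are all 10 genes) was at 204, 215 and 195 CPM in the unstimulated libraries, at 119.7, 114 and 112 CPM in CD3, at 98.3, 135 and 113 CPM in CD3_CD28 and at 123, 142 and 129 CPM in CD3_CD28_ICOS. Every stimulated library was below every unstimulated one. Stim1 fell by 0.82 ± 0.11 in CD3 (limma adjusted p = 9.38e-06), by 0.83 ± 0.11 in CD3_CD28 (adjusted p = 6.32e-06) and by 0.64 ± 0.11 in CD3_CD28_ICOS (adjusted p = 1.43e-04). Among stimulations no difference of Stim1 was called: CD3_CD28 against CD3 gave -0.012 with a 95% interval of -0.24 to 0.21, CD3_CD28_ICOS against CD3 0.18 (-0.045 to 0.41) and CD3_CD28_ICOS against CD3_CD28 0.19 (-0.033 to 0.42). The first of these turned to 0.24 under median-of-ratios scaling and was then called (adjusted p = 0.0394), and the last was called without CD3_CD28 replicate 2 (0.31, adjusted p = 0.0139).

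Stim2 (chromosome 5, 53998499 to 54121057, plus strand) was at 68.9, 59.9 and 60.0 CPM in Unstimulated, at 148, 131 and 137 CPM in CD3, at 66.7, 98.8 and 88.1 CPM in CD3_CD28 and at 124, 124 and 121 CPM in CD3_CD28_ICOS. The CD3 and CD3_CD28_ICOS libraries were all above the rest, and CD3_CD28 replicate 1 lay inside the range of the fresh cells. Stim2 rose by 1.13 ± 0.12 in CD3 (limma adjusted p = 1.69e-06), by 0.96 ± 0.12 in CD3_CD28_ICOS (adjusted p = 1.39e-05) and by 0.40 ± 0.12 in CD3_CD28 (adjusted p = 0.00788). That last rise was not called in the authors' deposited table (false discovery rate 0.10). Stim2 was lower in CD3_CD28 than in CD3 by 0.72 ± 0.12 on the log2 scale (adjusted p = 1.90e-04), and higher in CD3_CD28_ICOS than in CD3_CD28 by 0.55 ± 0.12 (adjusted p = 0.00130). CD3 and CD3_CD28_ICOS, the highest neighbours, differed by -0.17 (-0.43 to 0.091), which was not called. Among the stimulated groups B cell marker sums were likewise lowest in CD3_CD28, at 6.58 to 8.66 CPM against at least 167 CPM in the other stimulated groups, and their part in the result was not tested.

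A ratio of 2 CPM values within a library is unchanged by 1 scaling factor per library, though quantile normalization can alter it. The ratio of Stim1 to Stim2 CPM was 2.96, 3.60 and 3.25 in fresh cells and 0.807, 0.874 and 0.820 in CD3. It was 1.47, 1.36 and 1.28 in CD3_CD28 and 0.992, 1.14 and 1.06 in CD3_CD28_ICOS, and the 4 groups did not overlap. Per kb of exon, Stim1 made 61.7 ± 2.30% of the summed Stim1 and Stim2 level in fresh cells, 29.2 ± 0.874% in CD3, 40.4 ± 1.69% in CD3_CD28 and 34.5 ± 1.59% in CD3_CD28_ICOS. Per kb, Stim2 was above Stim1 in all 9 stimulated libraries. That ranking rests on the exon lengths used, 10371 bases for Stim1 and 5133 for Stim2. In CPM, Stim1 was above Stim2 in every CD3_CD28 library and in most CD3_CD28_ICOS libraries. The summed level of both was 32.0 ± 1.34 CPM per kb in fresh cells, 38.1 ± 2.06 in CD3, 27.6 ± 4.90 in CD3_CD28 and 36.6 ± 1.05 in CD3_CD28_ICOS.

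ORAI genes encode the pore subunits of the channel. Orai1 forms the main calcium release-activated channel of T cells, and Orai2 and Orai3 form related channels and can join Orai1 in mixed ones. The bases just upstream of their RefSeq transcription starts (GRCm38.p6) are shown because these 3 genes of 1 family took 3 different courses. They are written 5′ to 3′ along the gene's strand and in lower case, with every GGAAA, the core of NFAT sites, and its reverse complement TTTCC in capitals. For Orai2 the last 57 bases of the 250 are left out, since GENCODE places them in an exon.
Orai1, chr5:123014824-123015073, plus strand: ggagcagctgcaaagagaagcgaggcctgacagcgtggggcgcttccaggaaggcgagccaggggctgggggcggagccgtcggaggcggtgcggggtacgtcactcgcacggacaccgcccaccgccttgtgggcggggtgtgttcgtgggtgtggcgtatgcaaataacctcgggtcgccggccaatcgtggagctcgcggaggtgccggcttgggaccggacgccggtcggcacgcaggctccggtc
Orai2, chr5:136170714-136170906, minus strand: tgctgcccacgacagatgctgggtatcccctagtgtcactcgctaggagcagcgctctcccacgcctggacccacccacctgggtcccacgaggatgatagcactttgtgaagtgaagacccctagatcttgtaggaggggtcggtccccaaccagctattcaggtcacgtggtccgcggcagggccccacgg
Orai3, chr7:127769565-127769814, plus strand: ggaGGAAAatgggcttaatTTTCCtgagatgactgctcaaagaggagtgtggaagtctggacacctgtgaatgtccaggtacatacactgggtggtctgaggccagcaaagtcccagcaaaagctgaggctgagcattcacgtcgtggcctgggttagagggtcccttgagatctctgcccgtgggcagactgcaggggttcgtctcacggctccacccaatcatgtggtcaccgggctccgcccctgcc
GGAAA on either strand was found 2 times in the Orai3 window, at no place in the Orai1 window and 1 time in the Orai2 window, there within the bases not shown. Of 32851 RefSeq promoters of the same 250 bases, 55.6% held GGAAA at least 1 time and 21.4% at least 2 times. GC content was 70.8% for Orai1, 63.6% for Orai2 and 57.2% for Orai3, against a mean of 53.2% over all promoters. A RefSeq window was given for 9 of the 10 genes, Itpr1 having none. GGAAA was in the windows of 3 of the 9, Orai2, Orai3 and Atp2b1 (in 1 of its 2 windows), and TGANTCA, the AP-1 site, searched on both strands, in those of 0 of the 9, so the motifs did not overlap there; 6.75% of all promoters held TGANTCA. The NFAT core of Atp2b1 lay among the 236 of that window's 250 bases that GENCODE places in an exon. That of Orai2 was among the 57 exon bases left out above. Of the 9 genes only Orai3 therefore held this core wholly outside GENCODE exons. The RefSeq start of Atp2b4 lies 47294 bases inside the gene as GENCODE draws it, so its window is not that of the outermost start. A match is a description of letters, and its absence says only that these letters are not in this window.

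Orai2 (chromosome 5, 136147459 to 136170713, minus strand) was at 189.7, 212 and 189 CPM in Unstimulated, at 48.4, 44.1 and 48.9 CPM in CD3, at 40.6, 42.4 and 41.0 CPM in CD3_CD28 and at 85.5, 83.1 and 102 CPM in CD3_CD28_ICOS. No stimulated library reached the unstimulated range, and the CD3_CD28_ICOS libraries were all above those of the other stimulated groups. Orai2 fell by 2.04 ± 0.09 in CD3 (limma adjusted p = 5.27e-10), by 2.23 ± 0.09 in CD3_CD28 (adjusted p = 2.30e-10) and by 1.12 ± 0.09 in CD3_CD28_ICOS (adjusted p = 2.46e-07). The change in CD3 was more negative than those of all but 1.83% of the genes tested. CD3_CD28_ICOS was higher than CD3_CD28 by 1.10 ± 0.09 (adjusted p = 3.58e-07) and higher than CD3 by 0.92 ± 0.09 (adjusted p = 8.84e-06). CD3_CD28 and CD3 differed by -0.19 (-0.39 to 0.016), which was not called, and the difference turned to 0.020 and 0.064 under quantile normalization and median-of-ratios scaling. The summed CD4 T cell markers have the same order of groups in part, being lowest in CD3 and CD3_CD28, and their part in the result was not tested. Of these markers Cd4 and Cd2 were higher in CD3_CD28 than in CD3, and the other 5 lower.

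Orai1 (chromosome 5, 123015074 to 123030456, plus strand) varied least of the 10 genes, its highest group mean being 1.40 times its lowest. It was at 46.9, 45.8 and 43.2 CPM in Unstimulated, at 68.9, 61.2 and 49.4 CPM in CD3, at 53.2, 63.7 and 67.4 CPM in CD3_CD28 and at 47.8, 39.0 and 45.2 CPM in CD3_CD28_ICOS. CD3 and CD3_CD28 libraries were all above the fresh ones, and CD3_CD28_ICOS overlapped the fresh cells. Orai1 rose by 0.42 ± 0.13 in CD3_CD28 (limma adjusted p = 0.00796) and by 0.38 ± 0.13 in CD3 (adjusted p = 0.0165). The rise in CD3 was lost under both other scalings (0.14, adjusted p = 0.276, and 0.23, adjusted p = 0.0947) and without Unstimulated replicate 3 (adjusted p = 0.0508), CD3 replicate 1 (adjusted p = 0.0874) or CD3 replicate 2 (adjusted p = 0.0507). CD3_CD28_ICOS was at -0.047 (-0.32 to 0.23) from fresh cells, not called, and lower than CD3_CD28 by 0.47 ± 0.13 on the log2 scale (adjusted p = 0.00543) and than CD3 by 0.43 ± 0.13 (adjusted p = 0.0139). The difference from CD3 was no longer called when replicate 1 of CD3 (adjusted p = 0.0710) or replicate 2 of CD3_CD28_ICOS (adjusted p = 0.0514) was left out. In the authors' deposited table no comparison of Orai1 was called, with false discovery rates of 0.204 for CD3_CD28 and 0.309 for CD3 against Unstimulated. CD3 and CD3_CD28 differed by 0.045 (-0.23 to 0.32), which only median-of-ratios scaling called (0.30, adjusted p = 0.0417).

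Orai3 (chromosome 7, 127769815 to 127775150, plus strand) was highest in CD3_CD28_ICOS and lowest in CD3_CD28. It was at 21.1, 18.2 and 16.5 CPM in Unstimulated, at 24.4, 23.6 and 25.6 CPM in CD3, at 11.7, 13.2 and 16.7 CPM in CD3_CD28 and at 30.5, 26.4 and 30.7 CPM in CD3_CD28_ICOS. CD3_CD28 replicate 3 lay inside the range of the fresh cells, and the CD3_CD28_ICOS libraries were above all others. Orai3 rose by 0.63 ± 0.13 in CD3_CD28_ICOS (limma adjusted p = 0.00117), and was higher there than in CD3_CD28 by 1.03 ± 0.13 (adjusted p = 1.62e-05). It was lower in CD3_CD28 than in CD3 by 0.79 ± 0.13 on the log2 scale (adjusted p = 1.99e-04). B cell marker sums had the same order of CD3_CD28 below both other stimulated groups, and their part in the result was not tested.

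Smaller changes of Orai3 were less stable. The rise in CD3 against fresh cells, 0.39 ± 0.13 (limma adjusted p = 0.0193), was lost under quantile normalization (0.094) and median-of-ratios scaling (0.24), and without Unstimulated replicate 2 (adjusted p = 0.0502), Unstimulated replicate 3 (adjusted p = 0.0746) or CD3 replicate 3 (adjusted p = 0.0612). The fall in CD3_CD28 against fresh cells, -0.41 ± 0.13 (adjusted p = 0.0136), was lost when either replicate 1 of Unstimulated (adjusted p = 0.0680) or that of CD3_CD28 (adjusted p = 0.0659) was left out. CD3_CD28_ICOS and CD3 differed by 0.24 (-0.049 to 0.53), which was not called as deposited and was called under quantile normalization (0.37, adjusted p = 0.0108) and median-of-ratios scaling (0.29, adjusted p = 0.0427). In the authors' deposited table only the difference of Orai3 between CD3_CD28_ICOS and CD3_CD28 was called, at a false discovery rate of 0.0239.

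The make-up of the ORAI family differed more between groups than its sum. Per kb of exon the family summed to 60.9 ± 2.90 CPM in fresh cells, 45.3 ± 3.93 in CD3, 40.0 ± 4.36 in CD3_CD28 and 47.7 ± 4.15 in CD3_CD28_ICOS. This sum and its shares depend on the exon length taken for each gene. Orai2 made 53.3 ± 2.27% of that sum in fresh cells, 17.2 ± 1.87% in CD3, 17.1 ± 1.77% in CD3_CD28 and 31.2 ± 2.31% in CD3_CD28_ICOS. Orai1 made 32.5 ± 0.885% in fresh cells and was the largest part in every stimulated group, at 57.3 ± 4.83% in CD3, 66.8 ± 1.10% in CD3_CD28 and 40.2 ± 1.94% in CD3_CD28_ICOS. Orai3 made 14.3 ± 1.52%, 25.5 ± 2.99%, 16.1 ± 1.47% and 28.6 ± 0.400% in the same order of groups. The ratio of Orai1 to Orai2 CPM was 0.216 to 0.247 in fresh cells and 0.441 to 0.559 in CD3_CD28_ICOS. In CD3 it was 1.01 to 1.42, and in CD3_CD28 1.31 to 1.64. Orai1 over Orai3 was highest in CD3_CD28, at 4.57, 4.83 and 4.03, and lowest in CD3_CD28_ICOS, at 1.57, 1.48 and 1.47.

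**Figure D3:**
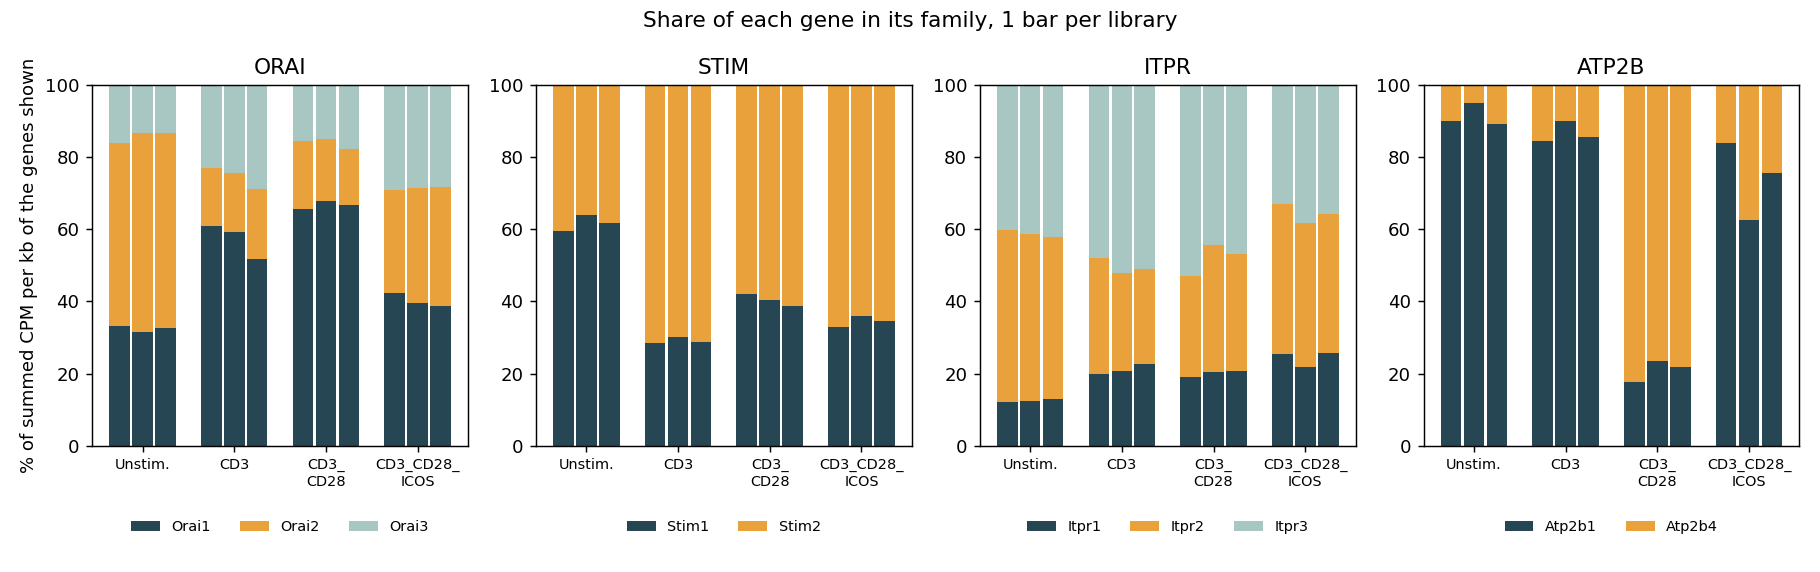
Share of each gene in the summed CPM per kb of exon of its family (vertical axes, % from 0 to 100), with 1 bar for each of the 12 libraries. Orai2 falls from 50.7 to 55.1% of the ORAI sum in the unstimulated libraries to 15.4 to 19.4% in the CD3 and CD3_CD28 libraries, and Atp2b4 is the larger pump share only in CD3_CD28, at 76.5 to 82.4%.

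The 3 IP3 receptor genes, which encode the channels that release calcium from the ER, were all lower in CD3 and CD3_CD28 than in fresh cells. Itpr2 (chromosome 6, 146108299 to 146502223, minus strand) fell most. It was at 419.7, 399 and 391 CPM in Unstimulated, at 123, 113 and 119 CPM in CD3, at 105, 151 and 142 CPM in CD3_CD28 and at 234, 281 and 257 CPM in CD3_CD28_ICOS. The fresh libraries were highest, the CD3_CD28_ICOS libraries all in between, and CD3 and CD3_CD28 overlapped. Itpr2 fell by 1.76 ± 0.12 in CD3 (limma adjusted p = 1.48e-08), by 1.61 ± 0.12 in CD3_CD28 (adjusted p = 2.58e-08) and by 0.65 ± 0.12 in CD3_CD28_ICOS (adjusted p = 3.33e-04). CD3_CD28_ICOS was higher than CD3 by 1.11 ± 0.12 (adjusted p = 1.20e-05), a value above those of 97.7% of the genes tested, and higher than CD3_CD28 by 0.97 ± 0.12 (adjusted p = 9.39e-06). CD3_CD28 and CD3 differed by 0.14 (-0.11 to 0.40), which was not called as deposited, but was called under quantile normalization (0.32), median-of-ratios scaling (0.40) and without CD3_CD28 replicate 1 (0.30, adjusted p = 0.0116). The CD4 T cell marker sum was again lowest in CD3 and CD3_CD28, and its part in the result was not tested. Within that sum Cd4 and Cd2 were higher in CD3_CD28 than in CD3, and the other 5 markers lower.

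Itpr1 (chromosome 6, 108213096 to 108551109, plus strand) was the IP3 receptor gene that rose in CD3_CD28_ICOS. It was at 132, 135 and 139 CPM in Unstimulated, at 95.4, 107 and 126 CPM in CD3, at 89.1, 109 and 111 CPM in CD3_CD28 and at 176, 189 and 212 CPM in CD3_CD28_ICOS. The CD3_CD28_ICOS libraries were above all 9 others. The gene was higher there than in CD3_CD28 by 0.90 ± 0.11 (limma adjusted p = 1.34e-05), than in CD3 by 0.81 ± 0.11 (adjusted p = 9.57e-05) and than in fresh cells by 0.50 ± 0.11 (adjusted p = 0.00183). The falls in CD3_CD28, -0.40 ± 0.11 (adjusted p = 0.00603), and in CD3, -0.31 ± 0.11 (adjusted p = 0.0251), were not called in the authors' deposited table (false discovery rates 0.0871 and 0.252). The fall in CD3 was lost without Unstimulated replicate 2 (adjusted p = 0.0534), Unstimulated replicate 3 (adjusted p = 0.0664), CD3 replicate 1 (adjusted p = 0.122) or CD3 replicate 2 (adjusted p = 0.0640), and that in CD3_CD28 without both Unstimulated replicate 3 and CD3_CD28 replicate 1 (adjusted p = 0.0704). CD3_CD28 and CD3 differed by -0.084 (-0.33 to 0.16), not called, and this turned to 0.084 and 0.17 under the other scalings. The sum of 6 CD8 and NK cell markers was 76.0 to 170.1 CPM in CD3_CD28_ICOS, 39.3 to 45.3 CPM in CD3_CD28, 54.3 to 110.2 CPM in CD3 and 50.9 to 75.7 CPM in Unstimulated, with Ncr1 at 0 in every CD3 and CD3_CD28_ICOS library. The sum of 7 CD4 T cell markers was 4204 to 4586 CPM in CD3_CD28_ICOS, 2737 to 3184 CPM in CD3_CD28, 2832 to 3335 CPM in CD3 and 4712 to 5140 CPM in Unstimulated. The part of either sum in the result was not tested. Of the CD4 T cell markers Cd4 and Cd2 were higher in CD3_CD28 than in CD3, and the other 5 lower. An antisense gene, Gm44040, shares 108 bases with Itpr1 exons and reached at most a mean of 2.55 CPM, in CD3_CD28.

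Itpr3 (chromosome 17, 27057304 to 27122223, plus strand) was at 217, 218 and 223 CPM in Unstimulated, at 113, 132 and 139 CPM in CD3, at 121, 115 and 124 CPM in CD3_CD28 and at 113, 164 and 146 CPM in CD3_CD28_ICOS. Fresh cells were above every stimulated library, and the stimulated groups overlapped one another. Itpr3 fell by 0.77 ± 0.12 in CD3 (limma adjusted p = 5.16e-05), by 0.86 ± 0.12 in CD3_CD28 (adjusted p = 1.46e-05) and by 0.65 ± 0.12 in CD3_CD28_ICOS (adjusted p = 3.55e-04). Between stimulations the largest difference was 0.22 (-0.040 to 0.47), of CD3_CD28_ICOS from CD3_CD28, and none was called. Without CD3_CD28_ICOS replicate 1 that group was called above CD3_CD28 (0.36, adjusted p = 0.00652) and above CD3 (0.27, adjusted p = 0.0366). The antisense gene Itpr3os shares 233 bases, 2.58%, of Itpr3 exon sequence. Whether counting used strand is not given in the sources used here.

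Together the IP3 receptor genes summed to 58.9 ± 0.569 CPM per kb of exon in fresh cells, 28.2 ± 2.15 in CD3, 27.9 ± 2.18 in CD3_CD28 and 43.5 ± 4.93 in CD3_CD28_ICOS. Such sums, and the order of shares within them, rest on the exon lengths used. Itpr2 was the largest part in fresh cells, at 46.2 ± 1.33%, and in CD3_CD28_ICOS, at 40.0 ± 1.55%. Itpr3 was the largest part in CD3, at 50.4 ± 2.09%, and in CD3_CD28, at 48.0 ± 4.44%. Itpr1 went from 12.5 ± 0.444% in fresh cells to 24.2 ± 2.18% in CD3_CD28_ICOS. The ratio of Itpr2 to Itpr3 CPM was 1.75 to 1.94 in fresh cells and 1.71 to 2.06 in CD3_CD28_ICOS, ranges that overlap, while CD3 had 0.852 to 1.09 and CD3_CD28 had 0.868 to 1.31. The ratio of Itpr2 to Itpr1 did not come back in that way, being 2.80 to 3.18 in fresh cells and 1.21 to 1.49 in CD3_CD28_ICOS.

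**Figure D4:**
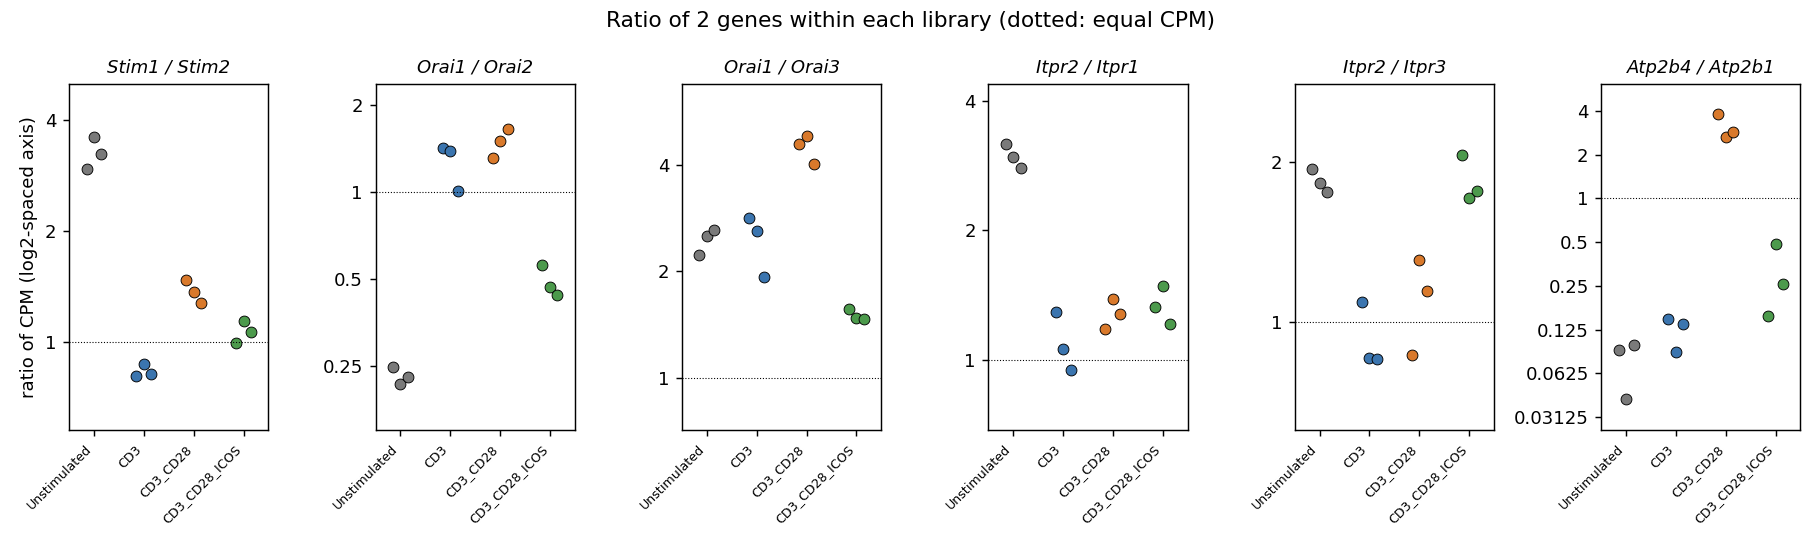
Ratio of the CPM of 2 genes of a family within each of the 12 libraries (vertical axes, log2-spaced), with 1 point per library and a dotted line at equal CPM. Atp2b4 exceeds Atp2b1 only in the CD3_CD28 libraries, at ratios of 2.62 to 3.78, and Stim1 over Stim2 falls from 2.96 to 3.60 in Unstimulated to 0.807 to 0.874 in CD3.

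Plasma membrane calcium pumps end a calcium signal by export. Atp2b4 (chromosome 1, 133699457 to 133801041, minus strand) was at 10.4, 4.30 and 8.17 CPM in Unstimulated, at 23.3, 12.2 and 18.5 CPM in CD3, at 287, 167 and 211 CPM in CD3_CD28 and at 13.8, 40.7 and 23.3 CPM in CD3_CD28_ICOS. The lowest CD3_CD28 library was above the highest of the other 9 libraries, and the CD3 and CD3_CD28_ICOS libraries overlapped. Atp2b4 rose by 4.73 ± 0.40 in CD3_CD28 against fresh cells (limma adjusted p = 9.90e-07), a value above those of 99.2% of the genes tested. CD3_CD28 was higher than CD3 by 3.56 ± 0.40 (adjusted p = 2.91e-05), which was the 66th largest change of either direction among 9826 genes. CD3_CD28_ICOS was lower than CD3_CD28 by 3.14 ± 0.40 on the log2 scale (adjusted p = 5.20e-05). These 3 calls held in all 22 alternatives, between 4.41 and 4.96, 3.32 and 3.82, and -3.52 and -2.77, and in the authors' deposited table.

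The rise of Atp2b4 in CD3_CD28_ICOS against fresh cells was 1.59 ± 0.40 (limma adjusted p = 0.00555). That in CD3, 1.17 ± 0.40 (adjusted p = 0.0227), was lost under quantile normalization (0.64, adjusted p = 0.168) and median-of-ratios scaling (adjusted p = 0.0520), and without Unstimulated replicate 2 (adjusted p = 0.0888), CD3 replicate 1 (adjusted p = 0.0845) or CD3 replicate 3 (adjusted p = 0.0636). CD3_CD28_ICOS and CD3 differed by 0.42 (-0.47 to 1.31), not called. The SE of this gene was the largest of the 10, and its levels in 3 of the 4 groups were low.

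Atp2b1 (chromosome 10, 98914406 to 99026143, plus strand) encodes the pump found in most tissues, and its order of groups was another. It was at 115, 104 and 82.8 CPM in Unstimulated, at 156, 139 and 136 CPM in CD3, at 75.8, 63.8 and 73.7 CPM in CD3_CD28 and at 89.7, 84.4 and 89.9 CPM in CD3_CD28_ICOS. The CD3 libraries were above all others and the CD3_CD28 libraries below all others. Atp2b1 rose by 0.52 ± 0.12 in CD3 (limma adjusted p = 0.00120) and fell by 0.49 ± 0.12 in CD3_CD28 (adjusted p = 0.00162). It was lower in CD3_CD28 than in CD3 by 1.00 ± 0.12 on the log2 scale (adjusted p = 8.84e-06), and in CD3_CD28_ICOS than in CD3 by 0.70 ± 0.12 (adjusted p = 3.20e-04). B cell marker sums were likewise lowest in CD3_CD28, and their part in the result was not tested. In CD3_CD28_ICOS it was at -0.18 (-0.43 to 0.069) from fresh cells, not called as deposited and called under quantile normalization (-0.30) and median-of-ratios scaling (-0.28), and without Unstimulated replicate 3 (-0.31, adjusted p = 0.0199). The rise in CD3_CD28_ICOS against CD3_CD28, 0.31 ± 0.12 (adjusted p = 0.0322), was lost under quantile normalization (adjusted p = 0.158) and median-of-ratios scaling (adjusted p = 0.438), with the ribosomal RNA gene left out of the total (adjusted p = 0.0850), and without CD3_CD28 replicate 2 (adjusted p = 0.126), CD3_CD28_ICOS replicate 1 (adjusted p = 0.0693) or CD3_CD28_ICOS replicate 3 (adjusted p = 0.0821).

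The pump pair thus changed its make-up most of the 4 families. Atp2b4 made 8.62 ± 3.26% of the summed CPM per kb of Atp2b1 and Atp2b4 in fresh cells, 13.3 ± 3.04% in CD3, 79.0 ± 3.07% in CD3_CD28 and 26.0 ± 10.8% in CD3_CD28_ICOS. The sum itself was 7.24 ± 1.16 CPM per kb in fresh cells, 10.9 ± 1.10 in CD3, 22.8 ± 5.29 in CD3_CD28 and 7.90 ± 0.924 in CD3_CD28_ICOS. On the per kb scale the highest of all 10 genes was Orai2 in fresh cells (32.4 ± 2.16 CPM per kb), Stim2 in CD3 (27.0 ± 1.74), Orai1 in CD3_CD28 (26.8 ± 3.20) and Stim2 in CD3_CD28_ICOS (24.0 ± 0.334). Atp2b4 was the lowest in 3 groups, at 0.622 ± 0.252 CPM per kb in fresh cells, and second of the 10 in CD3_CD28, at 18.1 ± 4.92. Merged exons of all GENCODE transcripts were used as the length, so a gene that uses a short transcript is understated.

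The genes whose pattern over the 12 libraries was most like that of each of the 10 were found among 9114 tested genes by Pearson's r of log2(CPM + 1). All points share the 4 groups, so r describes group levels for the most part. For Atp2b4 they were Snhg12 (r = 0.977; 12.7, 22.4, 94.4 and 26.1 CPM in Unstimulated, CD3, CD3_CD28 and CD3_CD28_ICOS), Gpld1 (0.977) and Adipor1 (0.976). For Orai2 they were Ifi208 (r = 0.996), Zbtb4 (0.995) and Scp2 (0.995), and for Itpr2 Prex1 (0.990), Hsdl1 (0.989) and Lef1 (0.989). Stim1 was most like Rhoh (r = 0.984) and Itprip (0.979), a gene of the IP3 receptor regulator list below. Stim2 was most like Nek7 (r = 0.983), Orai3 like Txndc16 (0.977), Itpr1 like Fam214a (0.965), Itpr3 like Als2cl (0.964) and Atp2b1 like Isoc2a (0.964). Orai1, with the smallest changes, had the lowest best match, Pelo (r = 0.947).

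The other genes of the pathway were read from 7 lists of 89 genes, of which 57 were tested. Their calls are read beside the shares of all genes tested. These were 43.6% higher and 26.3% lower in CD3 against fresh cells, and 18.7 and 45.7% in CD3_CD28 against CD3. For CD3_CD28_ICOS against CD3_CD28 they were 38.5 and 24.5%. Of the 12 STIM and ORAI regulators 10 were in the table and 8 were tested, and 1 was called higher and 5 lower in CD3 than in fresh cells, with a median of -0.40 against 0.18 over all genes. Saraf, which slows store-operated entry by turning STIM1 off, fell from 562 to 170 CPM in CD3 (-1.73 ± 0.10 on the log2 scale), and was at 225 CPM in both other stimulated groups. Stc2, a secreted glycoprotein that restrains store-operated entry, was at 0.234 CPM in fresh cells, 11.3 CPM in CD3, 41.8 CPM in CD3_CD28 and 4.13 CPM in CD3_CD28_ICOS, an order of the stimulated groups in which CD3_CD28 was highest, as for Atp2b4. Between CD3_CD28 and CD3 the list split into 3 higher and 3 lower. Cracr2a, a calcium-binding partner of ORAI1 and STIM1, was lowest in CD3_CD28 at 4.78 CPM against 27.7 CPM in fresh cells, 13.9 CPM in CD3 and 28.0 CPM in CD3_CD28_ICOS. Esyt2, a tether between ER and plasma membrane, was likewise lowest in CD3_CD28, at 112 CPM against 458, 226 and 354 CPM. In CD3_CD28_ICOS against CD3_CD28 3 of the 8 rose and 2 fell, Cracr2a by 2.33 ± 0.20 and Stc2 by -3.11 ± 0.26.

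Of 16 genes for IP3 production and IP3 receptor regulation 13 were tested. In CD3 against fresh cells 3 were higher and 6 lower, beside 43.6 and 26.3% of all genes. In CD3_CD28 against CD3 6 were higher and 4 lower, beside 18.7 and 45.7%. In CD3_CD28_ICOS against CD3_CD28 4 were higher and 4 lower, beside 38.5 and 24.5%. Plcg1, which encodes phospholipase C gamma 1, was at 329, 278, 356 and 465 CPM in Unstimulated, CD3, CD3_CD28 and CD3_CD28_ICOS. Itpkb, a kinase that converts IP3 and so removes it, was at 425, 192, 311 and 295 CPM in the same order. Tespa1, a receptor-linked regulator of the IP3 receptor, fell in all 3 stimulations, by 1.29 to 1.77 on the log2 scale. Lrmp, an ER membrane protein of lymphocytes, was at 55.5, 292, 104 and 302 CPM, and Plcg2, the phospholipase C gamma of B cells, at 19.1, 46.1, 14.2 and 47.2 CPM. Both were lowest in CD3_CD28 among the stimulated groups, as the B cell marker sums were, and the part of B cells in the result was not tested. Between CD3_CD28 and CD3 the split of this list was 7 higher and 2 lower under quantile normalization and 6 and 2 under median-of-ratios scaling. All genes gave 2882 higher and 3109 lower, and 3169 and 2789, under these scalings. Between CD3_CD28_ICOS and CD3_CD28 the list gave 4 and 5, and 2 and 6, beside 3224 and 3115, and 2772 and 3619, of all genes.

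Calcium uptake into the ER showed a change of pump genes. Of 11 genes of ER uptake, leak and storage 7 were tested. In CD3 against fresh cells 2 were higher and 2 lower, beside 43.6 and 26.3% of all genes. Atp2a3, which encodes the blood cell pump SERCA3, fell from 520 to 211 CPM in CD3, 148 CPM in CD3_CD28 and 309 CPM in CD3_CD28_ICOS, the same order of groups as Orai2. Atp2a2, the widely expressed pump SERCA2, rose from 148 CPM in fresh cells, reaching 258 CPM in CD3 and 215 CPM in CD3_CD28, and was at 167 CPM in CD3_CD28_ICOS. The fold between these pump genes is not read as a level, since lengths differ. Of 7 other genes of plasma membrane export 3 were in the table and 2 tested. Bsg, which encodes basigin, a partner protein of the plasma membrane calcium pumps and of lactate carriers, was at 110.0 CPM in fresh cells, 340.4 CPM in CD3, 862 CPM in CD3_CD28 and 249 CPM in CD3_CD28_ICOS. Its relative Nptn was called lower in CD3_CD28 than in CD3 (-0.69 ± 0.10).

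Of 10 genes of mitochondrial calcium handling 8 were tested. In CD3 against fresh cells 4 were higher and 2 lower, beside 43.6 and 26.3% of all genes. In CD3_CD28 against CD3 1 was higher and 5 lower, beside 18.7 and 45.7%. In CD3_CD28_ICOS against CD3_CD28 4 were higher and 3 lower, beside 38.5 and 24.5%. Scaling moved these splits: CD3_CD28 against CD3 became 3 higher and 4 lower under quantile normalization and 3 and 3 under median-of-ratios scaling. All genes gave 2882 higher and 3109 lower, and 3169 and 2789, there. CD3_CD28_ICOS against CD3_CD28 became 3 and 4 under both, beside 3224 and 3115, and 2772 and 3619, of all genes. Mcu, the pore of the mitochondrial uniporter, was at 21.6 CPM in fresh cells, 67.4 CPM in CD3, 51.3 CPM in CD3_CD28 and 23.4 CPM in CD3_CD28_ICOS. Mcub, a pore subunit that lowers uptake, was at 2.73, 24.5, 41.7 and 18.6 CPM, and Vdac1, a channel of the outer membrane, at 82.7, 326, 414 and 244 CPM.

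Of 21 genes for potassium and other cation channels 10 were tested. Potassium channels keep the membrane negative, and so keep the drive for calcium entry. Kcna3, the voltage-gated channel Kv1.3, was at 17.8, 27.8, 6.67 and 17.7 CPM in Unstimulated, CD3, CD3_CD28 and CD3_CD28_ICOS, and fell by 1.91 ± 0.18 from CD3 to CD3_CD28. Kcnn4, the calcium-activated channel KCa3.1, was at 176, 272, 212 and 258 CPM. Kcnk5, a two-pore potassium channel, rose from 1.66 CPM to 27.9, 35.6 and 10.2 CPM. P2rx7, an ATP-gated cation channel, was highest in CD3_CD28_ICOS at 69.6 CPM, against 36.8, 13.7 and 25.3 CPM in Unstimulated, CD3 and CD3_CD28. In CD3_CD28_ICOS against CD3_CD28 6 of the 10 were higher and 2 lower, beside 38.5 and 24.5% of all genes. The median was 0.54 against 0.13 over all genes. In CD3_CD28 against CD3 2 were higher and 4 lower, beside 18.7 and 45.7%. That split became 6 and 4 under quantile normalization, beside 2882 higher and 3109 lower of 9826 genes. Under median-of-ratios scaling it became 5 and 2, beside 3169 and 2789 of 9806 genes.

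Of 12 genes of calmodulin and its kinases 9 were tested. In CD3 against fresh cells 3 were higher and 4 lower, beside 43.6 and 26.3% of all genes. In CD3_CD28 against CD3 2 were higher and 4 lower, beside 18.7 and 45.7%. In CD3_CD28_ICOS against CD3_CD28 5 were higher and 1 lower, beside 38.5 and 24.5%. In CD3 against fresh cells the split was 1 higher and 6 lower under both other scalings. All genes gave 3119 higher and 3766 lower there under quantile normalization, and 3605 and 3389 under median-of-ratios scaling. Camk4, a kinase of nuclear calcium signalling, was at 82.8, 51.7, 160 and 154 CPM, and rose by 1.61 ± 0.10 from CD3 to CD3_CD28. Camk1d fell by 1.71 ± 0.11 in CD3 and rose by 1.05 ± 0.11 in CD3_CD28_ICOS against CD3_CD28. Across the 7 lists, as among the 10 genes, calls went both ways in most comparisons.

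**Figure D5:**
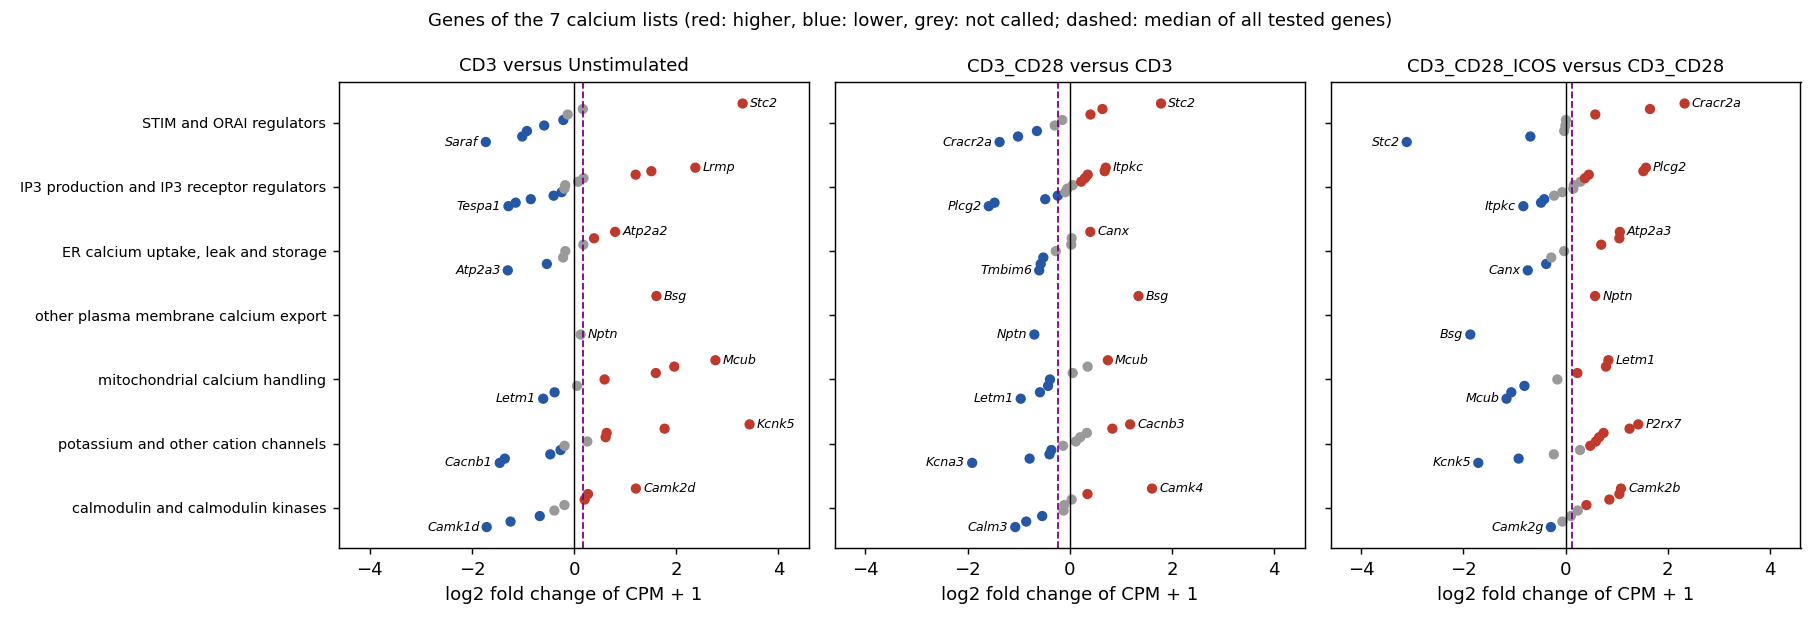
Change of tested genes of the 7 calcium lists, a few of them left out, in 3 comparisons, as log2 fold change of CPM + 1 (horizontal axes), with lists in rows, called genes in red (higher) or blue (lower), the rest in grey and the median of all genes tested dashed; the outermost genes of a list are named. Stc2 and Bsg lie to the right in CD3_CD28 against CD3, at 1.79 and 1.34, and to the left in CD3_CD28_ICOS against CD3_CD28, at -3.11 and -1.86.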

How the data were processed

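The authors deposited CPM, reads per 1e6 reads assigned to genes, with 1e-04 added to each value, as found from the column sums, and that offset was removed. The submitters' processing notes name Partek 10, DESeq2 and mm10, with no aligner or annotation given in the sources used here. Only 76.1 to 80.8% of low values were whole multiples of a step, so no count test was run. A table of the authors' own comparisons gave p-values (false discovery rates) and log2 ratios, per the file headers, and was used only as an alternative.

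The test took genes reaching 10 CPM in 3 or more libraries, on log2(CPM + 1). It was a two-sided limma 3.58.1 test (R 4.3.3) with a group-means model for the 12 libraries, with trend and robust options, adjusted by Benjamini-Hochberg over 9826 genes, and the script was tested on simulated data. Gene positions and exon lengths are from GENCODE vM21, whose coordinates matched 96.8% of the table's genes and all 10 described, and promoters are from RefSeq. The 10 genes and all lists were chosen with earlier results of these data known. Of each list up to 4 called genes per comparison could be named, those with the largest change in either direction, beside a fixed few. Alternatives covered scaling, pseudocount, filter, model, pairing and each library left out. All 12 per-sample columns were matched to labels and 0 were unused. Values of a few list genes are left out.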

Additional observations from a re-analysis of the deposited data

How the results depend on the processing

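Of 45 calls of the 10 genes over the 6 comparisons, 37 held in all 22 limma alternatives, and 33 were also called in the same direction in the authors' deposited table. How many calls of all genes held in these ways is not given here, so the 10 cannot be ranked for stability. Of 1320 values under an alternative, 1257 kept their direction and side of the threshold, 30 lost a call, 14 gained one and 19 changed sign. CD3_CD28 against Unstimulated gave 6 calls by the authors' false discovery rate in place of 10. The share of all genes called by that rate is not given here. CD3_CD28 against CD3 gave 7 calls under median-of-ratios scaling in place of 4, beside 3169 higher and 2789 lower among 9806 genes tested. Leaving out each library in turn gave 7 to 10 calls in CD3 against Unstimulated, beside 3954 to 4363 of 9826 genes higher and 2327 to 2644 lower. CD3_CD28 against Unstimulated gave 9 to 10 (all genes: 3286 to 3659 higher, 3497 to 3903 lower). CD3_CD28_ICOS against Unstimulated gave 8 to 9 (3212 to 3558, 1989 to 2414). CD3_CD28 against CD3 gave 4 to 5 (1537 to 1902, 3799 to 4581). CD3_CD28_ICOS against CD3_CD28 gave 7 to 8 (3278 to 3871, 2055 to 2468), and against CD3 4 to 6 (1381 to 1951, 2277 to 2903). The F test gave 7 to 9, and its share of all genes under the alternatives is not given here.

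Every sign change was of a value not called as deposited, and the cause was not tested. In CD3_CD28 against CD3, quantile normalization turned Orai2 to 0.020, Stim1 to 0.16, Itpr1 to 0.084 and Itpr3 to 0.082, and median-of-ratios scaling turned them to 0.064, 0.24, 0.17 and 0.16. Without the ribosomal RNA gene Stim1 became 0.048, and without both Unstimulated replicate 3 and CD3_CD28 replicate 1 it became 0.096 and Itpr1 0.015. Stim1 in CD3_CD28_ICOS against CD3_CD28 became -0.0094 under median-of-ratios scaling. Leaving out 1 library gave -0.13 to 0.096 for Stim1, -0.18 to 0.020 for Itpr1 and -0.084 to 0.15 for Orai1 in CD3_CD28 against CD3, and -0.11 to 0.036 for Orai1 in CD3_CD28_ICOS against Unstimulated.

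With replicate number as a block the calls were 10, 10, 8, 4, 8 and 5 in the order of comparisons used in the report, and 8 in the F test, as without it. Among all 9826 genes 4250, 3512, 3483, 1835, 3734 and 1815 were then called higher in the same order. Those called lower were 2545, 3810, 2303, 4427, 2387 and 2774. Same-numbered libraries of different groups correlated at r = -0.10 to 0.41 over 18 pairs, 6 of them over 0.1. Among the 3 stimulated groups 8 of 9 such pairs were above 0, and 5 of 18 pairs with different numbers, whose r was -0.33 to 0.33. In 14 of 18 look-ups a stimulated library correlated best with its own number in another stimulated group, a hint of pairing from the data and not from the labels. As not every pair was over 0.1, the numbers were not taken as pairs. Groups of 3 libraries limit precision most for Atp2b4, whose SE was largest.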
